A study of Mus musculus with 10 samples.

Results

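The insulin-like growth factor (IGF) system was examined through 10 genes, the ligands Igf2 and Igf1, the receptors Igf1r and Igf2r, and the secreted binding proteins Igfbp2, Igfbp3, Igfbp4, Igfbp5, Igfbp6 and Igfbp7, out of 18193 genes on the array. The list was chosen by the measured difference of Igf2 between knockout and wild-type cultures given Shh in these same arrays, and was filled in by symbol with the other genes of the system. Igf2 is therefore given as values with no test, and the other members are read from a test across all genes. Every probe set carrying 1 of these symbols was used, 28 in all, of which 23 passed a filter on mean signal.

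The data are signal intensities from Affymetrix Mouse Genome 430 2.0 arrays, each hybridised with total RNA from a primary culture of mouse cerebellar granule cell precursors. The groups were Bmi1 knockout cultures given sonic hedgehog (Shh; 2 arrays, replicates 8 and 10), wild-type cultures given Shh (2 arrays, replicates 7 and 9), untreated Bmi1 knockout cultures (3 arrays, replicates 2, 4 and 6) and untreated wild-type cultures (3 arrays, replicates 1, 3 and 5). Cerebella were taken from pups on postnatal days 5 to 7, and the cells were grown for 24 hours in medium with 10% fetal calf serum and 20 mM KCl, and Shh was present for 24 hours at a concentration labelled as 3 mg/ml. Each difference below is on the log2 scale, with its standard error (SE), and a gene is said to have risen or fallen where its adjusted p from limma was under 0.05.

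Some features of the cultures limit the comparisons. No source used here states how many animals gave each culture or which part of Bmi1 was deleted, so each p-value reflects the spread among the arrays alone. Both Bmi1 probe sets gave signals in knockout cultures close to those of wild type (3416 to 3904 in knockout and 3673 to 4515 in wild type on the brighter one), so they do not check the genotype. The labels give 24 hours of growth for every culture and 24 hours with Shh, without saying whether these were the same hours. A treatment note on wild-type replicate 3 mentions Shh where applicable, although its title is that of an untreated culture, as which it was used. The median signal was 66.8 to 72.3 on Shh arrays and 84.8 to 91.2 on untreated arrays, at an equal trimmed mean of 500. The 18S ribosomal control at the 3' end gave 6301 on knockout replicate 6 and 2030 on wild-type replicate 1, against 219 to 649 on the others. Granule precursor markers (9 genes) were present throughout, with summed signals of 59734 to 59882 in knockout with Shh, 60279 to 60867 in wild type with Shh, 54571 to 59367 in untreated knockout and 52632 to 65757 in untreated wild type. None of these 9 genes passed the threshold in any comparison tested here.

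In the IGF system, Igf1 and Igf2 bind the receptor tyrosine kinase Igf1r, which signals through Irs adaptors to the PI3 kinase, Akt and mTOR pathway, whereas Igf2r takes up Igf2 and delivers it to lysosomes. The binding proteins hold the ligands in the extracellular space and can extend their life, limit their access to the receptor or release them near cells after proteolysis. In mice, Igf2 is an imprinted gene that has been linked to the Shh pathway in cerebellar precursors and in medulloblastoma. That link is background, and the fall of Igf2 with Shh given below is not to be read as its known direction. IGF signalling supports the division of granule cell precursors. Bmi1 belongs to the Polycomb repressive complex PRC1.

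All 10 genes had promoter windows in RefSeq (build GRCm38.p6), 14 start sites in all, each taken here as the 250 bases before the start. The windows below belong to Igf2 and to the binding proteins whose levels moved with Shh, and are printed 5′ to 3′ on the strand of the gene. Capitals mark the core CCACCC of the site bound by GLI factors, which carry out Shh signalling, and the GC box GGGCGG bound by SP1, each on either strand.
Igf2, start site 1 (chr7:142666817-142667066, minus strand): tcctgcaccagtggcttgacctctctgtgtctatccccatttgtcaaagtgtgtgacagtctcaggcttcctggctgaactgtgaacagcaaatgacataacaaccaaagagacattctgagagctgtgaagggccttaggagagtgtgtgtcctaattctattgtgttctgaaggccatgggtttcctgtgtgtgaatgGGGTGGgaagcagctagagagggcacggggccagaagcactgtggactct
Igf2, start site 4 (chr7:142657497-142657746, minus strand): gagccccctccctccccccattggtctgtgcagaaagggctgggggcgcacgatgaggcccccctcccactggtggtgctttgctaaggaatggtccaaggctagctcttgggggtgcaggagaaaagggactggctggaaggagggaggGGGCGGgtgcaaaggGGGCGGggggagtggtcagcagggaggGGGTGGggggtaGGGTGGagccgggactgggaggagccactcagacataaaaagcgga
Igfbp2, start site 1 (chr1:72824230-72824479, plus strand): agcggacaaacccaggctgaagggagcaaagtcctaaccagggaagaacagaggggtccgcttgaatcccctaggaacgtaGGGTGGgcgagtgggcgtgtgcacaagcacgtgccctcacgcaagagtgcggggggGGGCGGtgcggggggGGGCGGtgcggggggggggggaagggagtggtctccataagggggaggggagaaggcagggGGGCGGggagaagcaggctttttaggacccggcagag
Igfbp4 (chr11:99040994-99041243, plus strand): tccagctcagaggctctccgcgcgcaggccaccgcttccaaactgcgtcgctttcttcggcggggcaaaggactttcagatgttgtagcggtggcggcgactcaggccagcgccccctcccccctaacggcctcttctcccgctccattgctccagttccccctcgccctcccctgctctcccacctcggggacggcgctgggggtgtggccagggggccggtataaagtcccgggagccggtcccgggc
Igfbp5 (chr1:72874866-72875115, minus strand): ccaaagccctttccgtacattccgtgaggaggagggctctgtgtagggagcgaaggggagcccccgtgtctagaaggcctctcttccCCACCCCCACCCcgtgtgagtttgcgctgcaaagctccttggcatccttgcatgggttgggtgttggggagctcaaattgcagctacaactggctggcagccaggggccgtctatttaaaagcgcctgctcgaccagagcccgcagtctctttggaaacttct
Igfbp7 (chr5:77408046-77408295, minus strand): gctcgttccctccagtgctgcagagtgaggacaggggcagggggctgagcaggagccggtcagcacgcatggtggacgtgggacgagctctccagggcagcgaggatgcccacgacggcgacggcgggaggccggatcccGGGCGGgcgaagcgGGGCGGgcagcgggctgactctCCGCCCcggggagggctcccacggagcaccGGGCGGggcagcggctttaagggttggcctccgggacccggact

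The longer GLI consensus GACCACCCA was in 0 of the 14 windows, and 0.225% of 32851 windows of all genes held it on either strand. Its core CCACCC was in 7 of the 14, against 28.1% of all windows, and the GC box GGGCGG in 6 of the 14, against 32.7%. The Igf2 window of start site 4 held 2 core motifs and 2 GC boxes, and that of start site 1 held 1 core motif. The other 2 Igf2 windows, not printed, held 0 core motifs, with 1 GC box in that of start site 3 and 0 in that of start site 2. For Igfbp2, the window of start site 1 held 1 core motif and 3 GC boxes. Its second window, not printed, held 2 core motifs and 0 GC boxes. The Igfbp4 window held neither, with 22 CG dinucleotides (the median of all windows is 6) and a TATAAA motif near the start, which 12.4% of all windows held. The Igfbp7 window held 4 GC boxes, and the Igfbp5 window 2 core motifs next to each other. These matches are descriptions of letters in the windows. Neither a match nor the lack of one shows whether the factor binds there.

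Igf2 (chr7:142650768-142666816, minus strand), the fetal growth ligand, was measured on its bright probe set 1448152_at at a signal of 426 and 404 in knockout with Shh, 138 and 129.6 in wild type with Shh, 647, 751 and 680.3 in untreated knockout, and 642, 565 and 635 in untreated wild type. Every Shh array lay below every untreated array, and both wild-type Shh arrays lay far below both knockout Shh arrays. With Shh the knockout mean was 415 ± 16 and the wild-type mean 134 ± 5.68 (SD, n = 2 each), a 3.11-fold difference (log2 1.64). This difference chose the list, so its size is given without an interval.

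Without Shh the Igf2 means were 693 ± 53.0 in knockout and 614 ± 42.7 in wild type (SD, n = 3 each). That difference was 0.17 (SE 0.09, 95% interval -0.04 to 0.38), and although the 2 groups did not overlap, as for 13.4% of all genes tested, their nearest arrays were at 647 in knockout and 642 in wild type. In order of level, untreated knockout came first and untreated wild type second, with their nearest arrays close together. Knockout with Shh came next and wild type with Shh last, each well apart from its neighbour. Shh-treated wild-type cultures held 21.8% of the untreated wild-type level (log2 -2.20, SE 0.10), and Shh-treated knockout cultures 60.03% of the untreated knockout level (-0.74, SE 0.10). The Shh difference in knockout minus that in wild type was 1.46. These values use the Shh arrays that chose the list, so the SEs beside them are not tests.

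The second Igf2 probe set, 1415931_at, gave signals of 1.71 to 26.8, was raised to the floor of 20.9 on 8 of the 10 arrays, and bears on none of these differences. Igf2 therefore rests on 1 probe set. Igf2os, the transcript antisense to Igf2, was below the filter at 17.8 to 46.7 on all arrays. The neighbouring H19 was not analysed here.

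**Figure D1:**
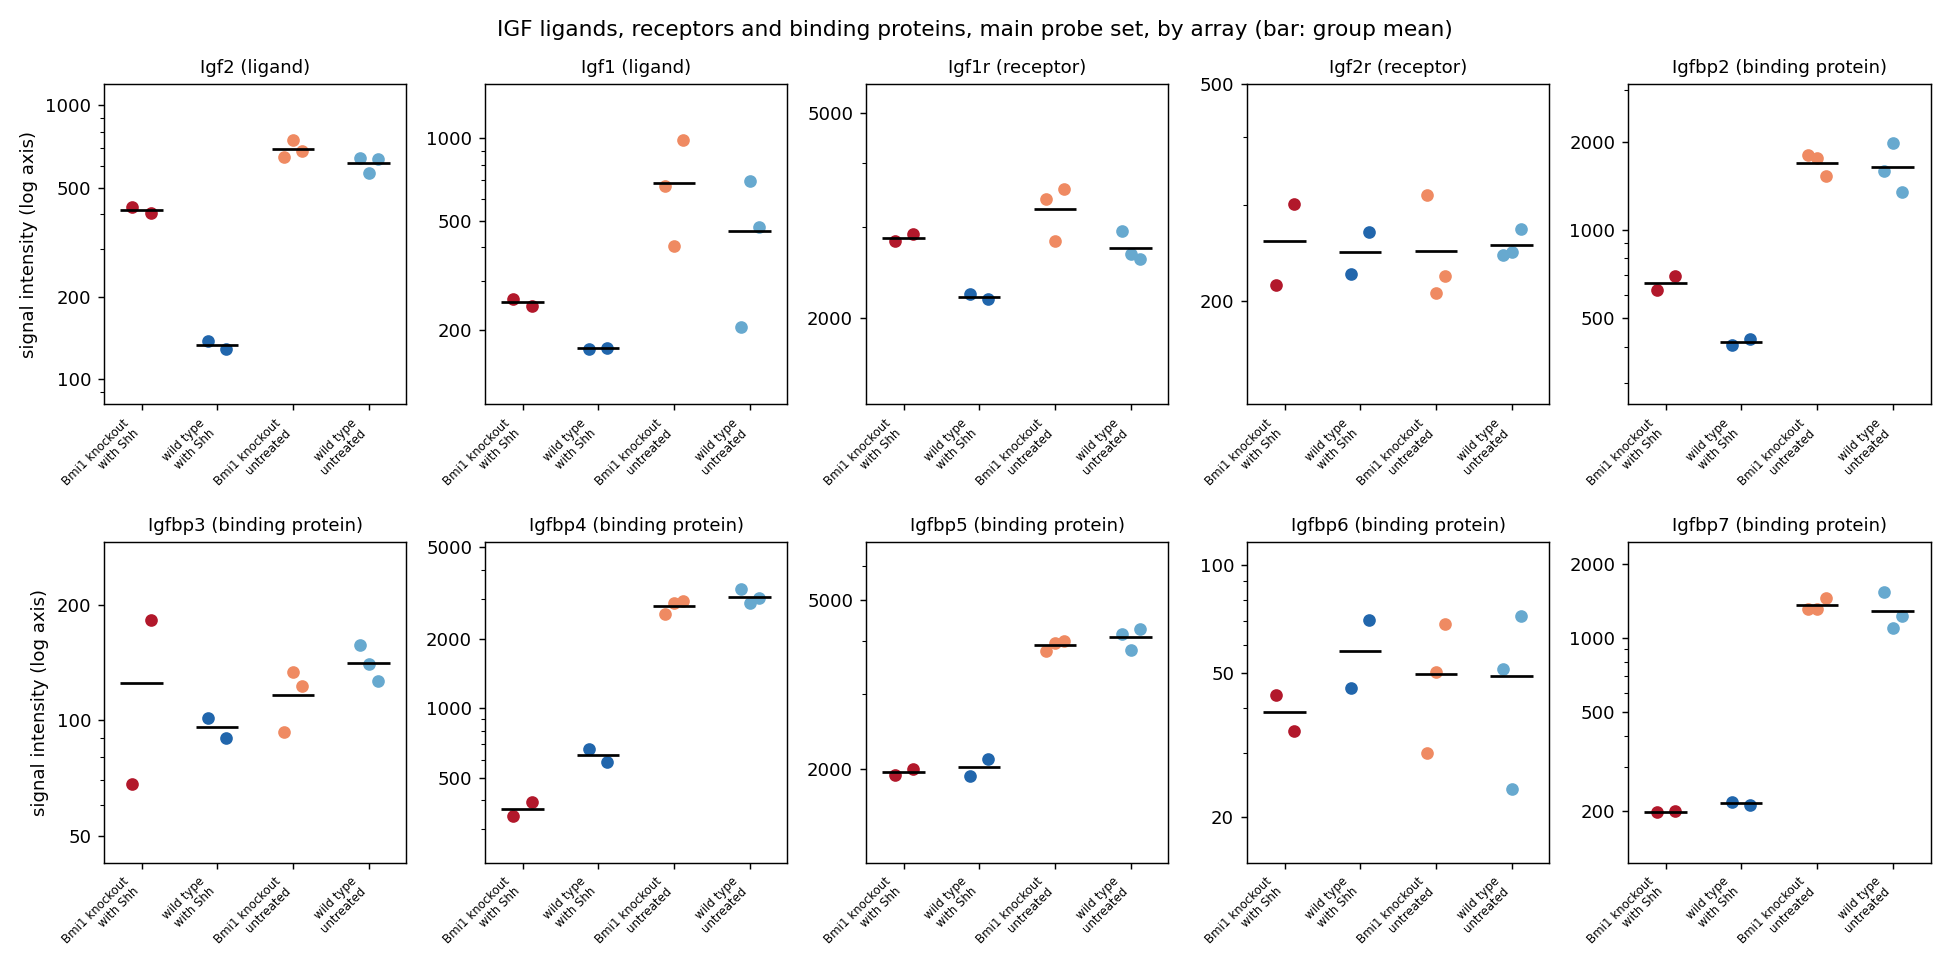
Signal intensity (log axis, each panel with its own range) of the main probe set of each of the 10 genes on each array, with points for arrays and a bar for the group mean. The Igf2 points of wild type with Shh lie at 129.6 and 138, below all others, and those of Igfbp2, Igfbp4, Igfbp5 and Igfbp7 lie lower on every Shh array than on any untreated array.

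Igf1 (chr10:87858265-87937047), the ligand that many tissues make after birth and that microglia also express, varied most between replicates. Its main probe set 1437401_at gave 259 and 244 in knockout with Shh, 171 and 172 in wild type with Shh, 671, 403 and 987 in untreated knockout, and 205, 699 and 472 in untreated wild type. The Shh arrays were lower than the untreated arrays of their genotype, but the untreated arrays differed among themselves by several fold, with wild-type replicate 1 the lowest. The Shh difference was -1.25 (SE 0.48, adjusted p = 0.0744) in wild type and -1.36 (SE 0.48, adjusted p = 0.0644) in knockout by limma, past the threshold in neither. Without wild-type replicate 1 the wild-type difference was -1.75 (adjusted p = 0.00873) and that in knockout, now tested against a smaller common spread, had an adjusted p of 0.0185. The knockout difference also passed without replicate 3 (0.0425) or 4 (0.038).

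The 4 Igf1 probe sets did not move alike. In wild type, the Shh difference was -1.87 on 1434413_at, the single one past the threshold when all probe sets were tested on their own (adjusted p = 0.0161), and 0.15 on 1452014_a_at. In that comparison 27% of all probe sets tested passed the threshold. Between genotypes, Igf1 passed the threshold in no comparison, with differences of 0.55 (SE 0.53) with Shh and 0.66 (SE 0.43) without.

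Among the receptors, Igf1r (chr7:67952257-68233668), the kinase through which both ligands act, gave 2819 and 2911 in knockout with Shh, 2226 and 2182.3 in wild type with Shh, 3401, 2826 and 3554 in untreated knockout, and 2948, 2666 and 2602 in untreated wild type. With Shh both knockout arrays lay above both wild-type arrays, while the untreated groups overlapped. The genotype difference was 0.38 with Shh (SE 0.13, adjusted p = 0.314) and 0.25 without (SE 0.10, adjusted p = 0.538), and its average was 0.31 (SE 0.08, adjusted p = 0.12), none past the threshold.

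All 5 probe sets of Igf1r were higher in knockout with Shh, by 0.38 to 1.04, and none of the 5 overlapped between genotypes. In that comparison of 2 against 2 arrays, 39.1% of all genes tested did not overlap, 22.3% with knockout higher and 16.9% with knockout lower. None of the 5 passed the threshold on its own. The Shh difference of Igf1r was -0.31 in wild type (SE 0.12, adjusted p = 0.0669) and -0.18 in knockout (SE 0.12, adjusted p = 0.287). The wild-type value passed the threshold with quantile normalization (adjusted p = 0.0485) and without replicate 4 (0.0381). Over the 5 probe sets the Shh difference ran from -0.94 to -0.29 in wild type. In knockout it ran from -0.28 to 0.21, with 3 of the 5 above 0.

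Igf2r (chr17:12682406-12769706), the clearance receptor for Igf2 and itself imprinted in mice, was at 214 and 302 in knockout with Shh, 224 and 268 in wild type with Shh, 313, 207 and 222 in untreated knockout, and 243, 246 and 271 in untreated wild type. The 4 groups overlapped throughout. Its differences ran from -0.06 to 0.06, and the 95% intervals of the Shh effect were -0.50 to 0.41 in wild type and -0.39 to 0.52 in knockout. On this probe set, 1424112_at, a change of over 1.5-fold thus lay outside them. A second probe set, 1424111_at, passed the threshold in no comparison either. Its Shh difference in wild type was 0.33, with untreated wild-type signals from 112 to 237, and the bound above does not extend to it. 1 further probe set carries both the Igf2r and Airn symbols and was not used.

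The binding proteins carried the largest differences of the tested members. Igfbp2, Igfbp4, Igfbp5 and Igfbp7 fell with Shh in both genotypes, Igfbp3 passed the threshold in neither, and Igfbp6 was too dim to test. In wild type 4 of the 8 tested members fell and 0 rose, where 33.8% of the 11397 genes tested passed the threshold and 19.8% fell. In knockout 4 of the 8 fell and 0 rose, where 28.1% of all genes passed and 17% fell. The median difference of the 8 members was -1.13 in wild type and -1.17 in knockout, against -0.01 over all genes tested in each.

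Igfbp4 (chr11:99040005-99052655), which in cell culture mostly restrains IGF action until it is cleaved, gave 342 and 391 in knockout with Shh, 664 and 588 in wild type with Shh, 2574, 2875 and 2939 in untreated knockout, and 3303, 2864 and 3006 in untreated wild type on 1437405_a_at. The Shh arrays of each genotype lay several fold below its untreated arrays, and the knockout Shh arrays were the lowest of all. Igfbp4 fell by 2.93 on the log2 scale in knockout (SE 0.11, 7.62 times lower, adjusted p = 6.78e-07) and by 2.29 in wild type (SE 0.11, 4.88 times lower, adjusted p = 3.09e-06).

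Igfbp4 was also the 1 tested member past the threshold between genotypes. With Shh it was 1.71 times lower in knockout (-0.77, SE 0.13, adjusted p = 0.0314), where 0.728% of all genes tested passed the threshold and 0.114% were lower in knockout. The difference was -0.13 in untreated cultures (SE 0.10, adjusted p = 0.838), and the average over both conditions was -0.45 (SE 0.08, adjusted p = 0.0325), in a comparison where 1.54% of all genes passed and 0.325% were lower in knockout. The difference between the Shh effects of the genotypes was -0.64 (SE 0.16, adjusted p = 0.685), so the larger fall in knockout was not shown to differ from that in wild type.

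This genotype call was a narrow one. It was lost with consecutive numbers as a block (adjusted p = 0.113), when all probe sets were tested on their own (0.0651), and without any 1 of replicates 4 to 10 (0.0521 to 0.184), while the difference kept its sign. The averaged difference lost its call with the block (0.0904) and without any 1 of replicates 1, 2 and 4 to 9 (0.0605 to 0.126). Of the 6 Igfbp4 probe sets, 5 passed the filter, and all 5 were lower in knockout with Shh, by -0.13 to -1.13. 4 of these 5 had no overlap between genotypes, where 39.1% of all genes tested had none, 16.9% with knockout lower, and probe sets of 1 gene are not independent. The remaining probe set, 1421991_a_at, was below the filter and at the floor on 3 of the 10 arrays. With Shh it gave 4.35 and 80.0 in knockout, on either side of the 13.4 and 11.6 in wild type. Against untreated cultures, 5 of 5 fell with Shh in knockout and 4 of 5 in wild type, the other being 1437406_x_at at -1.06 (adjusted p = 0.205). Of all probe sets tested on their own, 21.3% passed the threshold in knockout and 27% in wild type, in either direction. Several of these probe sets have suffixes that mark probes shared between transcripts, and 1437406_x_at ranged from 496 to 1673 among the untreated knockout arrays.

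**Figure D2:**
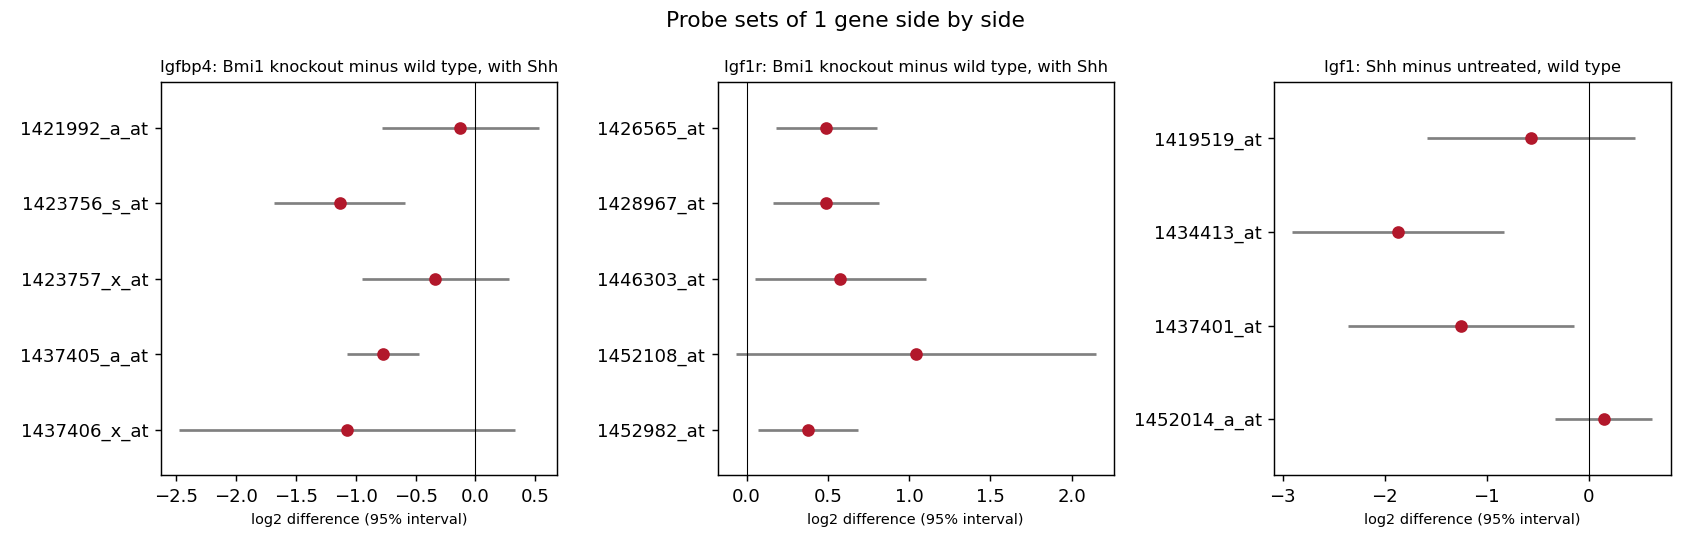
Log2 differences with 95% intervals for each probe set past the filter of Igfbp4 (knockout minus wild type, with Shh), Igf1r (the same comparison) and Igf1 (Shh minus untreated, wild type). All 5 Igfbp4 probe sets lie below 0, all 5 Igf1r probe sets lie above 0, and the 4 Igf1 probe sets run from -1.87 to 0.15.

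Igfbp7 (chr5:77349240-77408045), a matrix-bound member of the family that is abundant in vessel walls and binds IGFs weakly, had the largest Shh difference of the members in wild type. It gave 197 and 199 in knockout with Shh, 217 and 211 in wild type with Shh, 1314, 1314 and 1455 in untreated knockout, and 1533, 1096 and 1229.8 in untreated wild type. All 4 Shh arrays lay within a narrow range, far below the lowest untreated array. Igfbp7 fell by 2.78 in knockout (SE 0.14, adjusted p = 3.4e-06) and by 2.57 in wild type (SE 0.14, adjusted p = 4.07e-06) on the log2 scale. Its genotype differences were -0.11 with Shh and 0.09 without. The other 2 probe sets of Igfbp7 were below the filter.

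Igfbp2 (chr1:72824480-72852474), a binding protein of the fetal brain and of glia, gave 622 and 695 in knockout with Shh, 406 and 423 in wild type with Shh, 1799, 1758 and 1529.5 in untreated knockout, and 1589, 1970.3 and 1351 in untreated wild type. It fell by 1.36 in knockout (SE 0.15, 2.57 times lower, adjusted p = 0.000356) and by 1.96 in wild type (SE 0.15, 3.90 times lower, adjusted p = 3.29e-05). With Shh both knockout arrays lay above both wild-type arrays (0.67, SE 0.17, adjusted p = 0.157), and the difference between the Shh effects was 0.60 (SE 0.22, adjusted p = 0.931). Neither passed the threshold. The untreated groups of the 2 genotypes overlapped for Igfbp2, as for Igfbp4.

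Igfbp5 (chr1:72858065-72874865), a binding protein that attaches to extracellular matrix and whose gene lies next to Igfbp2 on chromosome 1, gave 1938 and 2006 in knockout with Shh, 1931 and 2118 in wild type with Shh, 3792, 3958 and 3999 in untreated knockout, and 4154, 3812 and 4271 in untreated wild type. The 2 genotypes overlapped in each condition, and the 2 conditions stood clearly apart. It fell by 0.99 in knockout (SE 0.09, adjusted p = 0.000128) and by 1.01 in wild type (SE 0.09, adjusted p = 7.75e-05). The difference between these effects was 0.02 (95% interval -0.28 to 0.32). A second, dimmer probe set gave Shh differences of -0.93 in knockout and -1.15 in wild type, neither past the threshold on its own.

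Igfbp3 (chr11:7206086-7215498), the main carrier of IGFs in blood, was dim and variable. It gave 68.0 and 182 in knockout with Shh, 101 and 90.01 in wild type with Shh, 93.0, 134 and 122.5 in untreated knockout, and 157, 140.4 and 126 in untreated wild type. The 2 knockout Shh arrays spanned the range of all other arrays. Its Shh difference was -0.05 in knockout (SE 0.34, adjusted p = 0.932) and -0.56 in wild type (SE 0.34, adjusted p = 0.243). Leaving out replicate 8 or 10 narrowed the common spread and brought the wild-type difference past the threshold (adjusted p = 0.0365 each), and without replicate 10 the knockout difference was -0.76 (0.0436). A second probe set past the filter, 1423062_at, gave Shh differences of -0.99 in knockout and -0.13 in wild type. Between genotypes with Shh it gave -0.77, against 0.22 on the main probe set, so the 2 differed in direction. Neither passed the threshold when tested on its own.

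Igfbp6 (chr15:102144186-102149512), which prefers Igf2 as its ligand, had a mean log2 signal of 5.53, under the filter at 6.26, while Igfbp3 just passed at 6.87. Its signals were 43.5 and 34.6 in knockout with Shh, 45.5 and 70.1 in wild type with Shh, 30.1, 50.3 and 68.7 in untreated knockout, and 51.6, 23.9 and 72.3 in untreated wild type. The groups overlapped, except for the 2 genotypes with Shh, and no test was made.

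In all, the 8 tested members had 0 genes past the threshold between untreated genotypes, where 0.377% of all genes passed, with 1 member and 990 genes at an unadjusted p under 0.05. With Shh, 5 of the 8 did not overlap between genotypes, against the 39.1% of all genes given above. For the difference between the Shh effects, 0 of the 8 passed, with 2 members and 561 genes at an unadjusted p under 0.05. In that comparison 0.00877% of all genes tested passed, and nothing is read from it for Igf2, whose values chose the list. No gene passed with quantile normalization, with consecutive numbers as a block, or without any 1 array other than replicate 7.

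**Figure D3:**
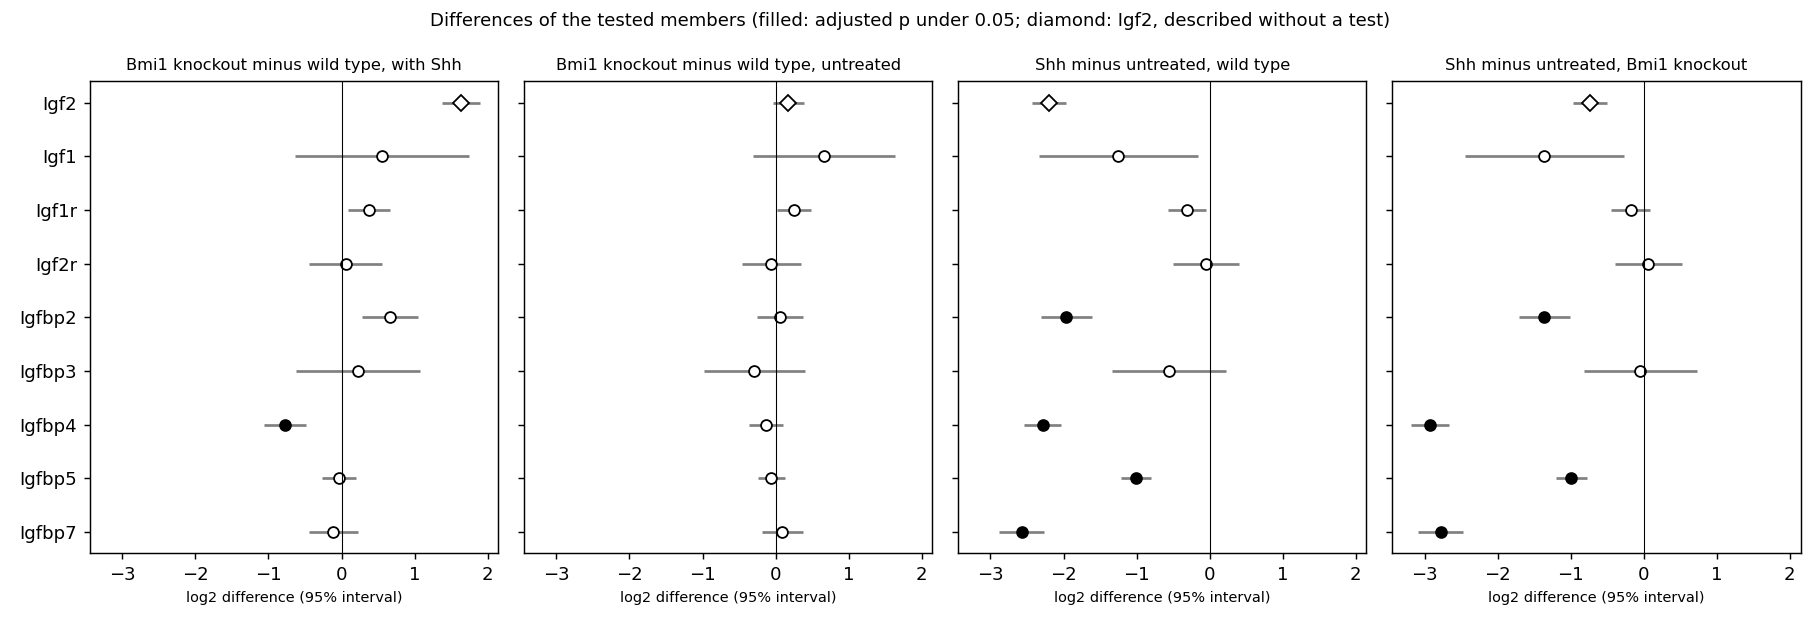
Log2 differences with 95% intervals of Igf2 and the 8 tested members in 4 comparisons, knockout minus wild type on the left and Shh minus untreated on the right, with filled points for adjusted p under 0.05 and a diamond for Igf2, which has no test. Igfbp2, Igfbp4, Igfbp5 and Igfbp7 are filled in both Shh panels, and Igfbp4 alone is filled between genotypes, with Shh. The Igf2 intervals show the spread of the arrays alone. They are not tests, since the Igf2 difference with Shh chose the list, and their distance from 0 is not to be read as support.

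Markers of other cell types moved with the same groups, although meninges and vessels had been dissected away before dissociation, per the labels. The summed signal of 11 endothelial markers was 363 to 367 in knockout with Shh and 425 to 585 in wild type with Shh, against 5318 to 5337 in untreated knockout and 4412 to 5910 in untreated wild type. Pecam1 and Slco1a4 were at the floor in both Shh groups. The sum of 8 pericyte markers was 394 to 450.1 in knockout with Shh and 284 to 299 in wild type with Shh, against 4725 to 6619 in untreated knockout and 5359 to 5520 in untreated wild type. All 6 tested endothelial and all 6 tested pericyte markers fell with Shh in each genotype.

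The sum of 12 astrocyte and Bergmann glia markers was 31999 to 35647 in knockout with Shh and 25477 to 27839 in wild type with Shh, against 64873 to 68929 in untreated knockout and 59760.4 to 77475 in untreated wild type. Of these 12, 10 fell with Shh in each genotype, 1 rose with Shh in knockout, and 2 were higher in knockout than in wild type with Shh. The Shh difference in knockout minus that in wild type was above 0 for 12 of the 12 (median 0.55, against 0.001 over all genes tested). It passed the threshold for 0 of them, and markers read on the same arrays are not independent of each other. The sum of 14 microglia and macrophage markers was 3798 to 5159.7 in knockout with Shh and 6158 to 6420.4 in wild type with Shh, against 7866 to 8757 in untreated knockout and 9184 to 13518 in untreated wild type. Of the 13 tested, 8 fell with Shh in each genotype, 1 rose with Shh in knockout, and 1 was lower in knockout with Shh. Averaged over both conditions, the comparison in which Igfbp4 was also lower in knockout, 4 of the 13 were lower in knockout and all 13 had a difference below 0 (median -0.52), where 0.325% of all genes tested were lower. P2ry12 was at the floor in knockout with Shh.

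The sum of 15 fibroblast and meningeal markers was 7087 to 7156 in knockout with Shh and 7732 to 7879 in wild type with Shh, against 8773 to 9509 in untreated knockout and 8191 to 9019 in untreated wild type. Of the 11 tested, 6 fell and 2 rose with Shh in knockout, and 5 fell and 1 rose in wild type. Choroid plexus markers (5 genes) summed to between 129 and 523 on all arrays. In such bulk samples, fewer cells of a type and less RNA per cell cannot be told apart, and the part of these cells in the differences of Igf2, Igf1 and the binding proteins was not tested.

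**Figure D4:**
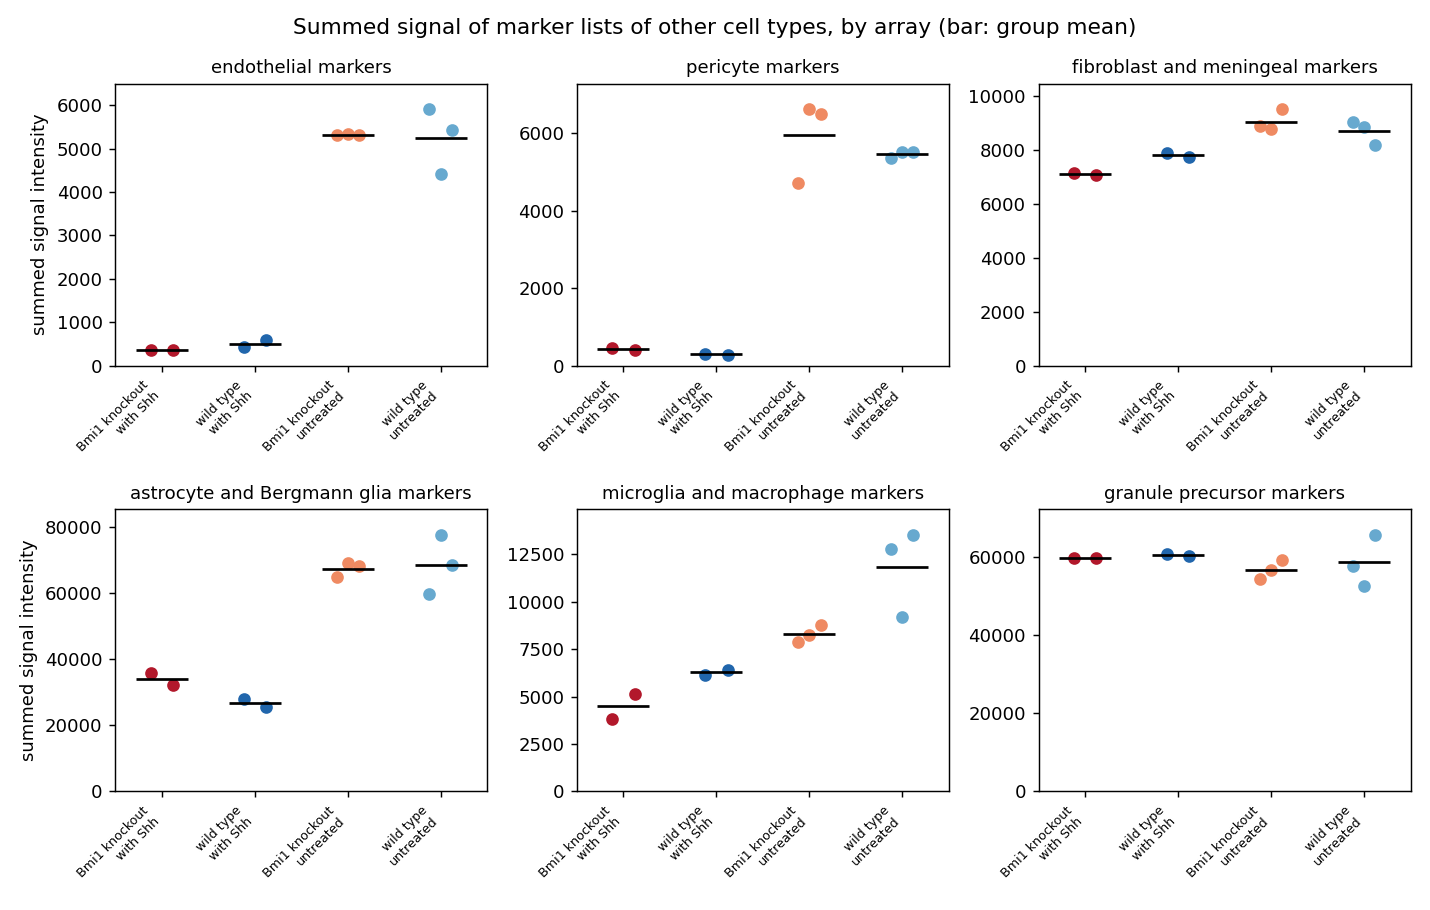
Summed signal intensity (linear axes from 0) of marker lists of 6 cell types on each array, with points for arrays and a bar for the group mean. Endothelial and pericyte sums are at most 585 on Shh arrays and at least 4412 on untreated arrays, while granule precursor sums overlap between conditions.

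The 5 tested genes whose log2 signals followed Igf2 most closely over the 10 arrays were Tnr (r = 0.975), Adgra1 (0.975), Cd81 (0.973), Sox10 (0.969) and Matn4 (0.969). These are Pearson correlations across arrays that share the 4 groups, so they mostly repeat group means, and 196 of the 11396 other genes (1.72%) had r over 0.9. Tnr encodes a brain matrix glycoprotein and Sox10 a transcription factor of the oligodendrocyte lineage. Sox10 gave 374 and 581 in knockout with Shh, 209 and 177 in wild type with Shh, 850.1 to 911 in untreated knockout and 784 to 954 in untreated wild type.

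Of 13 further IGF system genes outside the 10, 12 were on the array and 5 passed the filter. Htra1, a secreted protease that cleaves IGF binding proteins, fell by 1.93 in knockout (SE 0.23, adjusted p = 0.000439) and by 2.57 in wild type (SE 0.23, adjusted p = 6.51e-05). Igfbpl1, a protein related to the binding proteins, fell by 1.00 in knockout (SE 0.17, adjusted p = 0.00295) and by 0.93 in wild type (SE 0.17, adjusted p = 0.00348). The other 3, among them the insulin receptor Insr, passed the threshold in no comparison. None of the 5 differed between genotypes past the threshold. Igfbp1, the binding protein made by liver, was at the floor on all arrays.

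Of 30 genes that carry the signal inside the cell, 27 were on the array and 26 were tested. Grb10, an imprinted adaptor that binds Igf1r and dampens its signal, was the 1 gene of these past the threshold between genotypes, where 0.614% of all genes tested were higher in knockout with Shh and 0.325% without. It gave 1117 and 946 in knockout with Shh, 465 and 407 in wild type with Shh, 1819.9, 1958 and 2151 in untreated knockout, and 811, 1025 and 648 in untreated wild type. The knockout arrays lay above the wild-type arrays in each condition.

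Grb10 was 2.36-fold higher in knockout with Shh (1.24, SE 0.20, adjusted p = 0.0302) and 2.42-fold higher in untreated knockout (1.28, SE 0.16, adjusted p = 0.0113), with an average of 1.26 (SE 0.13, adjusted p = 0.0016). With consecutive numbers as a block these adjusted p were 0.0777 with Shh and 0.0684 without, both past the threshold no longer. The call with Shh was also lost without any 1 of replicates 1, 2, 4 and 6 to 10 (0.0504 to 0.187) and the untreated call without replicate 1, 4 or 6 (0.0538 to 0.0765). Quantile normalization (0.0563), no filter (0.0816), every probe set on its own (0.0547), only the arrays compared (0.122) and leaving out replicates 1 and 6 together (0.0836) ended the call with Shh as well, so that it held in 3 of 17 alternatives. The untreated call, which held in 11 of 17, was also lost with no filter (0.0596) and without replicates 1 and 6 (0.199), while the average kept its call in all 16 alternatives. Its other 2 probe sets were below the filter. Grb10 also fell with Shh, by 0.94 in knockout (SE 0.18, adjusted p = 0.00505) and by 0.90 in wild type (SE 0.18, adjusted p = 0.00501).

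With Shh, 6 of the 26 signalling genes rose and 3 fell in knockout, and 6 rose and 7 fell in wild type. Of all genes tested, 11.1% rose and 17% fell in knockout, and 14% rose and 19.8% fell in wild type. Eif4ebp1, a translation inhibitor that mTOR switches off, rose by 1.40 in knockout (SE 0.14, adjusted p = 0.000168) and by 1.77 in wild type (SE 0.14, adjusted p = 2.98e-05). Irs1, an adaptor of Igf1r, rose by 0.74 in knockout (SE 0.11, adjusted p = 0.00112) and by 1.03 in wild type (SE 0.11, adjusted p = 0.00014). Grb14, a relative of Grb10, fell by 1.19 in knockout (SE 0.16, adjusted p = 0.000926) and by 1.59 in wild type (SE 0.16, adjusted p = 0.000149). Sos1, a Ras activator, rose by 1.06 in knockout and 1.04 in wild type on its brighter probe set, while its other one gave -0.20 and -0.28 and passed the threshold in neither.

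Of the proteins that bind Igf2 RNA, Igf2bp1 gave 304 and 532 in knockout with Shh, 18.8 and 40.7 in wild type with Shh, 222 to 287 in untreated knockout and 16.6 to 53.6 in untreated wild type. Every knockout array lay well above every wild-type array, and the differences were 3.78 with Shh (SE 0.45, adjusted p = 0.00792) and 2.94 without (SE 0.37, adjusted p = 0.0108). 1 array of each wild-type group was at the floor, so these sizes depend on it. The call with Shh was lost without replicate 8 (0.0639) or 9 (0.0531), and the untreated call without replicate 1 (0.0549), 2 (0.0525) or 6 (0.0749). With only the arrays compared the call with Shh was lost (0.117), and the untreated call was lost with no filter (0.0727) and without replicates 1 and 6 together (0.194). Its dimmer probe set passed on its own with Shh (3.09, adjusted p = 0.0324) and not without (2.13, adjusted p = 0.106). Igf2bp3 was 2.14-fold higher in untreated knockout (SE 0.13 on the log2 scale, adjusted p = 0.00608), and with Shh its difference was 0.62 (SE 0.15, adjusted p = 0.144). It rose with Shh in wild type by 0.59 (SE 0.14, adjusted p = 0.0108), a call lost without replicate 7 (0.0589) or 9 (0.0559). The Shh difference of Igf2bp3 in knockout was 0.12 (SE 0.14, adjusted p = 0.58). Its 6 probe sets were 1.46-fold to 2.14-fold higher in untreated knockout. Tested alone, 2 of them passed the threshold, as did 0.182% of all probe sets. The untreated call was lost without replicates 1 and 6 together (0.0726). Averaged over both conditions, the limma differences were 3.36 for Igf2bp1 (SE 0.29, adjusted p = 0.000557) and 0.86 for Igf2bp3 (SE 0.10, adjusted p = 0.00331). Both averages kept their call in all 16 alternatives, in a comparison where 1.54% of all genes passed. Igf2bp2 was not analysed here.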

How the data were processed

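Total RNA from 10 cultures was hybridised to 1 array each. The deposited values are signal intensity on a linear scale, made by the authors with MAS5 in GCOS 1.2, per the submitters' processing notes. The 2% trimmed mean was 500 on every array, so no further scaling was applied. The table has no detection calls, and the number of arrays limits the precision.

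Signals under the 25th percentile of all values (20.9) were raised to it, log2 was taken, and where a gene had several probe sets, the one brightest on average stood for it. Genes whose mean reached the overall median (76.4) were tested, 11397 in all. Gene symbols came from the platform annotation, with RefSeq (GRCm38.p6) for identifiers, positions and promoter windows. limma 3.58.1 in R 4.3.3 (lmFit, eBayes) fitted 1 mean per group over all 10 arrays, with two-sided tests and Benjamini-Hochberg adjustment over all genes for each comparison, at a threshold of 0.05. Every adjusted p in the text comes from this fit or a named alternative to it. The script was tested on simulated data.

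The members and gene lists were chosen with earlier results of these data known. Named genes outside the members are those of 3 fixed lists past the threshold (at most 5 per list and comparison), the measured Igf2 RNA-binding and locus genes, and the 5 genes closest to Igf2 by Pearson correlation. No replicate number occurs more than once, and no label pairs cultures. Arrays whose numbers follow each other deviated together, with correlations of 0.12 to 0.278 for the untreated pairs and 0.16 for the Shh pairs, against -0.266 to 0.0533 for other untreated pairings, so a block of consecutive numbers was run as an alternative. The other alternatives were log2(signal + 16), quantile normalization, no filter, every probe set on its own, only the arrays compared, each array left out, and, added after the data were seen, leaving out both arrays with the highest 18S control.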

Additional observations from a re-analysis of the deposited data

How the results depend on the processing

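Over the 8 tested members and 6 comparisons, 48 results had 800 alternative values, of which 764 stayed on the same side of the threshold, 23 fell short of it and 13 newly passed it. 0 of the called differences changed sign. The number of members called with Shh against untreated stayed at 4 or became 5, always with Igfbp2, Igfbp4, Igfbp5 and Igfbp7. Between genotypes with Shh, the 1 called member (Igfbp4) became 0 when every probe set was tested on its own, with only the arrays compared, with the replicate block of consecutive numbers and without replicates 1 and 6 together, and the number ranged from 0 to 1 when 1 array was left out. For the average over both conditions the 1 called member became 0 with no filter, with every probe set on its own, with the block and without replicates 1 and 6 together, and the number ranged from 0 to 1 when 1 array was left out. The block otherwise changed the calls of Grb10 alone among the named genes (adjusted p = 0.0777 with Shh and 0.0684 without, in limma).

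With log2(signal + 16) the Igf2 differences were 1.53 between genotypes with Shh, -2.07 for Shh in wild type and 1.36 between the Shh effects, and with quantile normalization 1.47, -1.97 and 1.29. Adding 16 shrinks log2 differences by construction, most for dim signals. The cause of the shift with quantile normalization was not tested.

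Among all genes, the number called between genotypes with Shh was 83, against 3 with only the arrays compared, 50 with the block, 51 with quantile normalization, 52 without replicates 1 and 6, and 29 to 94 without 1 array. Without Shh it was 43, against 23 with the block, 12 without replicates 1 and 6, and 19 to 50 without 1 array. For the average it was 176, against 83 without replicates 1 and 6, and 82 to 219 without 1 array. Between the Shh effects it was 1, against 8 with no filter and 0 to 2 without 1 array. For Shh it was 3852 in wild type and 3198 in knockout, against 2380 to 3749 and 1891 to 3198 without 1 array, and 6074 probe sets in wild type when each was tested alone. The fit on only the arrays compared does not apply to the average or the difference between the Shh effects, which need all 4 groups. Dim probe sets (Igfbp6, the second one of Igf2) bound what the arrays show of those transcripts.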
